A study of Macaca fascicularis with 24 samples.

Results

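The glycolytic enzymes described here are 10 genes, HK1, PFKP, ALDOA, TPI1, GAPDH, PGK1, ENO1, PKM, LDHA and LDHB, measured in the thoracic aorta of the cynomolgus macaque, Macaca fascicularis. Members were found by gene symbol: every probe set (the group of short probes that reads 1 transcript) for which the annotation of the array's platform gives 1 of these symbols was taken, which yielded 25 of the 22277 probe sets. Of the 25, GAPDH has 6, PGK1 has 4, ENO1 and TPI1 have 3 each, ALDOA, PKM and LDHB have 2 each, and HK1, PFKP and LDHA have 1 each. Old males (mean age 20.0 years) were set against young males (6.6 years), and old females (21.2 years) against young females (7.2 years), with 6 arrays in each group. No treatment or genotype is named in the labels, which give a mean age per group and no age of a single animal.

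Glycolysis turns glucose into pyruvate in the cytosol and yields ATP without oxygen. Vascular smooth muscle, the main cell of the aortic wall, is known for forming lactate from glucose even when oxygen is plentiful. Most steps are catalysed by 1 of several isoenzymes encoded by separate genes, and the members here are mostly the forms found in many tissues. Lactate dehydrogenase, which converts pyruvate and lactate into each other, is a tetramer of LDHA and LDHB subunits. LDHA prevails in tissues that make lactate, and LDHB in oxidative tissues such as the heart.

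Values are given as log2 of the deposited intensity plus 16, quantile normalised over the arrays. A probe set was tested when its mean over all arrays reached 7.60, the median over all probe sets, which left 11108 probe sets of 6943 genes. Of the member probe sets, 19 were tested. PGK1 217383_at (mean 7.54), PKM 213700_s_at (7.35) and TPI1 210050_at (5.16) lay below this limit, and 3 GAPDH probe sets are controls of the array that were kept out of the test. The member nearest above the limit was ENO1 217294_s_at, with a mean of 8.26. The array was designed on human sequences, so a macaque transcript that differs from the human one can bind less well, and levels of different probe sets are not compared. Probe sets whose names end in _x_at hold probes that also match other sequences, so ALDOA, GAPDH, LDHB and 1 of the TPI1 probe sets may include signal from related genes or pseudogenes.

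In 3 pairs of arrays (old females 1 and 4, young females 3 and 4, young males 3 and 4) both arrays resembled each other more closely than any other 2 arrays, with a correlation of their deviations of 0.807 to 0.872, against at most 0.502 for the other 273 pairs. By the SD of the log2 difference the gap was smaller: at least 0.427 for the other pairs, against 0.227 to 0.383 for these 3. The mean of each of these pairs stands for 1 sample here, which left 6 old males and 5 samples in each of the other groups, 21 in all. In 6 samples (old males 2 and 4, young male 1, old females 2 and 6, young female 3) the profile stood apart, with a median correlation with the other samples of 0.809 to 0.828, against 0.878 to 0.935 for the other 15. Results are therefore also given without these 6, called the divergent samples below. Markers of smooth muscle were measured by all 8 listed genes, each above the limit, with summed intensities of 126164 to 190679 in old males, 139661 to 168533 in young males, 52038 to 167795 in old females and 79739 to 175911 in young females. No label states that the samples within a group are separate animals, and the p-values below cover no more than the spread among these samples.

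No tested member probe set differed between old and young animals after Benjamini-Hochberg adjustment over all probe sets in limma's moderated test. In males, 0 of 19 member probe sets were called at an adjusted p of 0.05, against 2 of all 11108 (0.0180%). In females the count was 0 of 19, against 0 of 11108 (0%), and averaging the sexes called none of either (0%). At an unadjusted p of 0.05, 1 of 19 passed in males against 3.36% of all probe sets, 0 in females against 2.84%, and 0 for the averaged sexes against 4.38%. Every member had an adjusted p of 0.99991 in males and 0.99963 in females. The differences below are therefore descriptions of these samples, each with its standard error (SE).

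With all 21 samples the signs of the differences ran in opposite ways in the 2 sexes, and in females this depended on a few samples. In males, 16 of the 19 probe sets had a higher mean in old than in young animals, against 47.6% of all tested probe sets. In females, 18 of 19 had a lower mean in old animals, against 54.5% of all. Without the divergent samples, 18 of 19 were higher in old males, and in females 10 were higher and 9 lower in old animals. This took out 2 of 5 old and 1 of 5 young females, so few samples were left. Without young female 2, which is not divergent, 6 were higher and 13 lower in old females. With adipocyte markers as a covariate, 12 of 19 were higher in old males. Higher in old males and lower in old females together applied to 15 of the 19 and to 23.1% of all. The exceptions in males were PFKP, PKM and ENO1 201231_s_at, and the exception in females was LDHB 213564_x_at, at 0.04. For the averaged sexes, 10 of 19 were higher in old animals, against 46.0% of all. No member's old and young groups were separate from each other, against 0.315% of all probe sets with every old male higher and 0.351% with every old male lower, and 0.162% and 0.180% in females. These probe sets share their samples, and several read the same gene, so their signs are not independent of each other.

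Taking 1 probe set per gene, the brightest tested, the median log2 difference of the 10 enzymes was 0.24 in males, against −0.01 for all 6943 genes, with 7 of 10 higher in old animals. In females the median was −0.16, against −0.02 for all genes, with 9 of 10 lower in old animals. Without the divergent samples the female median was −5.58e-05, and with the adipocyte covariate the male median was 0.075. Averaged within a sample over the 10 genes, the level was 11.27 ± 0.23 (SD, n = 6) in old males and 11.10 ± 0.07 (n = 5) in young males. It was 11.22 ± 0.17 (n = 5) in old females and 11.41 ± 0.30 (n = 5) in young females. Young females had the highest mean and young males the lowest, and the groups next to each other in that order differed by no more than the SD of 1 of them. Array measurements of whole tissue cannot tell fewer cells of a type from less RNA per cell.

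**Figure D1:**
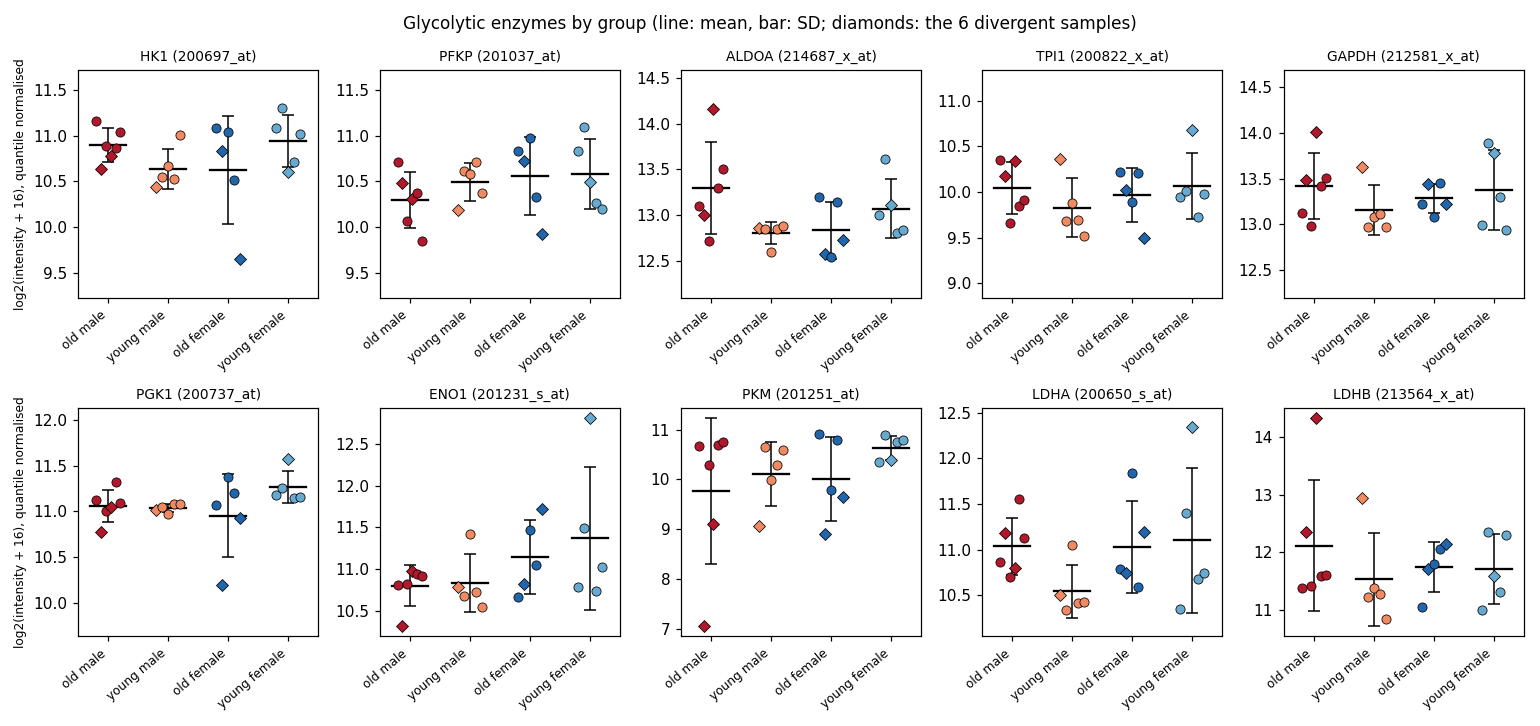
Log2 values of the brightest tested probe set of each enzyme in every sample, by group, with the group mean as a line and its SD as a bar; diamonds are the 6 divergent samples. Old and young groups overlap in every panel, and old male 4 stands highest for ALDOA (14.16) and LDHB (14.33).

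The upper part of the pathway takes up and primes glucose. HK1, the hexokinase that phosphorylates glucose once it has entered the cell, measured 10.64 at the lowest, 10.88 at the median and 11.17 at the highest in old males, against 10.44, 10.54, 10.67, 10.53 and 11.01 in young males. The lowest old male lay above 3 of the 5 young males, but young males 3 and 6 lay within the range of the old ones. In old females HK1 measured 11.08, 10.83, 11.04, 10.51 and 9.65, against 11.08, 11.30, 10.60, 10.71 and 11.02 in young females. Old female 6 lay far below all other samples, and the female groups overlapped. The difference was 0.26 ± 0.22 (SE) in males and −0.32 ± 0.22 in females. Without old female 6 the female difference was −0.07.

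PFKP, the platelet-type phosphofructokinase that catalyses the committed step, had a lower mean in old than in young males under each of the 33 alternative settings tried, with differences of −0.32 to −0.11. Old males measured 9.85 at the lowest, 10.34 at the median and 10.71 at the highest, against 10.19, 10.61, 10.58, 10.71 and 10.38 in young males. Old females measured 10.83, 10.72, 10.98, 10.33 and 9.93, against 10.83, 11.10, 10.50, 10.26 and 10.19 in young females. The ranges overlapped widely in both sexes, with differences of −0.20 ± 0.21 (SE) in males and −0.02 ± 0.22 in females.

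ALDOA encodes the muscle-type aldolase, which splits fructose bisphosphate into the triose phosphates. Its probe set 214687_x_at measured 12.71 at the lowest, 13.20 at the median and 14.16 at the highest in old males, against 12.86, 12.85, 12.60, 12.84 and 12.88 in young males. The young males lay close together, and 5 of the 6 old males lay above the highest of them. In old females it measured 13.20, 12.58, 12.54, 13.14 and 12.72, against 13.00, 13.61, 13.11, 12.80 and 12.83 in young females, so that 3 of the 5 old females lay below the lowest young one.

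The male difference of ALDOA 214687_x_at was 0.49 ± 0.21 (SE), with an unadjusted limma p of 0.0275 and an adjusted p of 0.99991. It was the 1 member probe set with an unadjusted p under 0.05 in males. Left out in turn, no sample turned its sign: the difference ranged between 0.32 without old male 4 and 0.61 without old male 3. It was 0.36 without the divergent samples. The other ALDOA probe set, 200966_x_at, gave 0.38 ± 0.22 in males, again with 5 of 6 old males above the highest young male. In females the differences were −0.24 ± 0.22 and −0.31 ± 0.23.

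TPI1 encodes triosephosphate isomerase, which turns the triose phosphates into each other. Its brightest probe set, 200822_x_at, measured 9.67 at the lowest, 10.05 at the median and 10.36 at the highest in old males, against 10.36, 9.68, 9.88, 9.69 and 9.52 in young males. Old females measured 10.22, 10.02, 9.89, 10.20 and 9.50, against 9.94, 10.02, 10.68, 9.72 and 9.98 in young females. Both pairs of groups overlapped, with differences of 0.22 ± 0.20 (SE) in males and −0.10 ± 0.21 in females.

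The other tested TPI1 probe set, 213011_s_at, stood further apart. It measured 9.54 at the lowest, 9.69 at the median and 10.17 at the highest in old males, against 9.12, 9.63, 9.49, 9.51 and 9.32 in young males, a difference of 0.34 ± 0.21 (SE). In old females it measured 9.85, 8.98, 9.91, 9.63 and 8.83, against 9.70, 9.86, 10.28, 9.49 and 10.07 in young females, a difference of −0.44 ± 0.22 with an unadjusted limma p of 0.0571. The low values among old females were samples 2 and 6, both divergent, and the highest young female was the divergent sample 3. Without the divergent samples the female difference was 0.02 and the male one 0.14.

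The lower part of the pathway earns ATP. GAPDH oxidises glyceraldehyde phosphate and is often used as a reference gene for RNA measurements. Its brightest tested probe set, 212581_x_at, measured 12.98 at the lowest, 13.45 at the median and 14.01 at the highest in old males, against 13.63, 12.98, 13.08, 13.11 and 12.97 in young males. Old females measured 13.22, 13.45, 13.08, 13.45 and 13.22, against 13.00, 13.89, 13.78, 13.30 and 12.94 in young females. Every group overlapped with its counterpart, and old male 4 and young female 2 were the highest samples. The differences of the 3 tested GAPDH probe sets lay between 0.01 and 0.27 in males and between −0.32 and −0.06 in females. The 95% confidence intervals of 212581_x_at ran from −0.13 to 0.66 in males and from −0.51 to 0.32 in females, so that changes of this size in either direction could not be told from none.

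The array also carries 3 GAPDH control probe sets, which read the 5′ part, the middle and the 3′ part of the transcript. In arrays made from partly degraded RNA the 3′ part keeps more signal than the 5′ part, so the difference between both is a common measure of RNA quality. The 3′ minus 5′ difference was 0.47 ± 0.55 (SD, n = 6) in old males and 0.33 ± 0.46 (n = 5) in young males. It was 0.61 ± 0.68 (n = 5) in old females and 0.17 ± 0.34 (n = 5) in young females. Old female 2 (1.60) and old male 4 (1.51) had the largest differences. Over the divergent samples the mean was 0.88, against 0.20 over the other 15. The 5′ probe set was lower in the divergent samples by 0.47, and the 3′ probe set was higher there by 0.21. Of all 6 GAPDH probe sets, 3 had a higher and 3 a lower mean in the divergent samples than in the others.

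**Figure D2:**
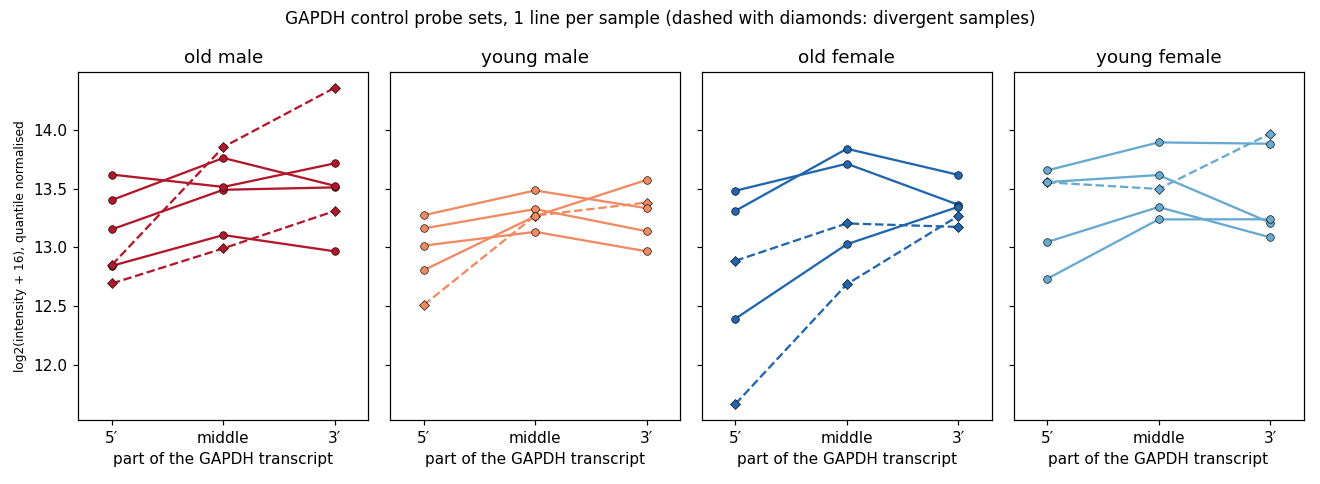
Log2 values of the 3 GAPDH control probe sets (5′ part, middle and 3′ part of the transcript), 1 line per sample and 1 panel per group, with divergent samples dashed. The steepest lines towards the 3′ part are those of old female 2 (difference 1.60) and old male 4 (1.51).

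PGK1 encodes phosphoglycerate kinase, which catalyses the first ATP-forming step of the pathway. Its probe set 200737_at varied little, with 10.77 at the lowest, 11.07 at the median and 11.31 at the highest in old males, against 11.01, 11.05, 10.97, 11.08 and 11.08 in young males. In old females it measured 11.06, 10.19, 11.38, 11.19 and 10.92, against 11.18, 11.26, 11.57, 11.15 and 11.16 in young females. The male medians nearly coincided, and 3 of the 5 old females lay below the lowest young female. The differences were 0.02 ± 0.17 (SE) in males and −0.31 ± 0.18 in females, with an unadjusted limma p of 0.0958 in females. Without the divergent samples the female difference was 0.03. The other tested PGK1 probe sets gave 0.08 and 0.14 in males and −0.38 and −0.11 in females.

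ENO1 encodes alpha-enolase, which forms phosphoenolpyruvate. Its brightest probe set, 201231_s_at, measured 10.33 at the lowest, 10.88 at the median and 10.98 at the highest in old males, against 10.79, 10.69, 11.43, 10.73 and 10.55 in young males. Old females measured 10.67, 10.83, 11.47, 11.05 and 11.72, against 10.79, 11.50, 12.80, 10.74 and 11.03 in young females. Young female 3 was the highest of all samples, and both pairs of groups overlapped. The differences were −0.03 ± 0.29 (SE) in males and −0.22 ± 0.31 in females.

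The dimmer ENO1 probe sets gave other values for the same gene. In males the difference was 0.39 ± 0.48 (SE) for 216554_s_at and 0.39 ± 0.42 for 217294_s_at, and in females −0.13 ± 0.50 and −0.55 ± 0.44. Without the divergent samples, 217294_s_at gave 0.61 ± 0.18 in males, with an unadjusted limma p of 0.00404 and an adjusted p of 0.526. The brighter probe sets gave less in that setting, at most 0.073 for 201231_s_at and at most 0.47 for 216554_s_at. The divergent samples had a lower mean than the others for 217294_s_at by 0.80 and a higher one for 216554_s_at by 0.94. The ENO1 probe sets thus did not differ in the same direction between these samples.

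PKM encodes the muscle-type pyruvate kinase, which makes pyruvate and ATP. It had the widest spread of the tested member probe sets: its SD within groups was 0.952, against a median of 0.460 over all tested probe sets and 0.249 for PGK1 200738_s_at, the lowest among members. Probe set 201251_at measured 7.06 at the lowest, 10.48 at the median and 10.75 at the highest in old males, against 9.06, 10.65, 9.99, 10.29 and 10.58 in young males. Old females measured 10.92, 8.91, 9.79, 10.80 and 9.65, against 10.36, 10.89, 10.39, 10.75 and 10.78 in young females. The lowest samples were old male 2, old female 2, young male 1 and old male 4, all divergent. Over the 6 divergent samples the mean of 201251_at was 9.03, against 10.55 over the other 15.

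The difference of PKM 201251_at was −0.35 ± 0.53 (SE) in males and −0.62 ± 0.55 in females. In males it was 0.19 without old male 2 and −0.61 without young male 1, so leaving out 1 sample turned its sign. In females it was −0.34 without old female 2 and −0.19 without the divergent samples. The second PKM probe set, 213700_s_at, lay below the limit for testing. It went the other way in the divergent samples, with a mean of 7.69 against 7.18 in the others.

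LDHA measured 10.70 at the lowest, 10.99 at the median and 11.55 at the highest in old males, against 10.50, 10.34, 11.05, 10.41 and 10.43 in young males. Every old male lay above 4 of the 5 young males, and the groups overlapped through young male 3, the mean of a pair of closely alike arrays. In old females it measured 10.78, 10.75, 11.84, 10.59 and 11.19, against 10.35, 11.40, 12.35, 10.68 and 10.74 in young females. The difference was 0.49 ± 0.29 (SE) in males, with an unadjusted limma p of 0.107, and −0.07 ± 0.31 in females. The male difference kept its sign under each of the 33 alternatives tried, between 0.39 and 0.62. The female one did not: it was 0.24 without young female 3, the highest of all samples, and −0.28 without old female 3.

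LDHB 213564_x_at measured 11.38 at the lowest, 11.60 at the median and 14.33 at the highest in old males, against 12.94, 11.23, 11.37, 11.28 and 10.85 in young males. Old male 4 and young male 1 stood far above the others of their groups, which lay between 11.38 and 12.35 in old males and between 10.85 and 11.37 in young males. In old females it measured 11.05, 11.71, 11.79, 12.06 and 12.14, against 10.99, 12.36, 11.59, 11.32 and 12.31 in young females, with wide overlap. The difference was 0.58 ± 0.45 (SE) in males and 0.04 ± 0.47 in females. The male difference was 0.14 without old male 4, 0.93 without young male 1 and 0.32 without the divergent samples. The second LDHB probe set, 201030_x_at, gave 0.38 ± 0.42 in males and −0.01 without old male 4. Old male 4 and young male 1 are both divergent, with GAPDH 3′ minus 5′ differences of 1.51 and 0.87. Over the 6 divergent samples the mean of 213564_x_at was 12.51, against 11.51 over the other 15. The mean of 201030_x_at was higher in the divergent samples by 0.79.

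Adipocyte markers were high in the males that stood out for LDHB. In the females with the highest LDHB brown fat markers were high, and in most of them erythroid markers too. Of 10 listed adipocyte markers 9 were on the array and 6 passed the limit for testing (CIDEC, LPL, FABP4, PPARG, CFD and LIPE). The defining genes ADIPOQ, PLIN1 and LEP lay below it. The summed intensity of these 9 ranged between 3101 and 39501 in old males (median 15388) and between 1494 and 38908 in young males (median 5011). It ranged between 2118 and 25057 in old females (median 12233) and between 4528 and 22870 in young females (median 11999). Old male 4 had the highest sum in its group and young male 1 the highest in its own, the same samples that stood out for LDHB. Among old females the order differed: sample 2 had the highest sum, 25057, with LDHB at 11.71, and sample 6 had the highest LDHB, 12.14, with a sum of 12233. Summed brown fat markers (5 on the array) were 7134 and 5560 in old females 5 and 6, against 1040 to 1847 in the others of that group. Young females 2 and 6, highest for LDHB, had 14470 and 5370, against 955 to 1208 in theirs. Old male 4 (13477) and young male 1 (4246) led their groups, but old male 5 had 5530 with LDHB at 11.59. Summed erythroid markers were 36871 and 31477 in old females 5 and 6 and 38831 in young female 6, but 1823 in young female 2. Young male 6, lowest of all samples for LDHB, had 34190. Old female 6 also had the highest lymphocyte sum, 7192. The parts of brown fat, erythroid and lymphocyte markers in LDHB were not tested. With the mean of the 6 tested adipocyte markers as a covariate, the male difference of LDHB 213564_x_at was −0.12 and that of LDHA was 0.41. That marker mean was 10.79 over the divergent samples and 9.26 over the others. The parts of fat, divergence and RNA quality in LDHB cannot be told apart here.

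**Figure D3:**
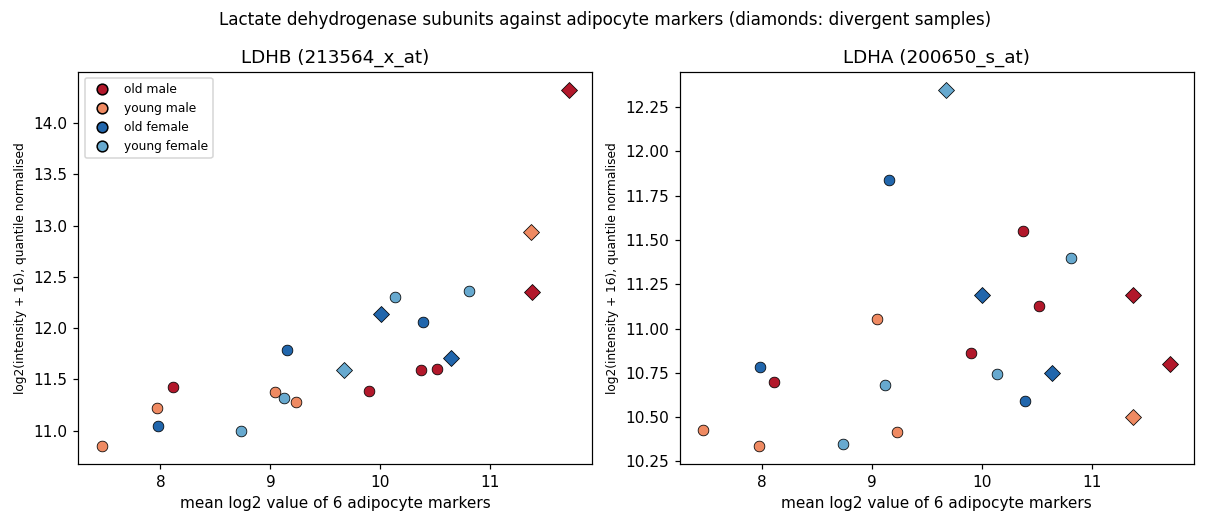
Log2 values of LDHB and LDHA against the mean log2 value of 6 adipocyte markers, 1 point per sample, coloured by group; diamonds are the divergent samples. For LDHB the highest points, old male 4 (14.33) and young male 1 (12.94), lie at the right end; the LDHA points do not line up in this way.

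**Figure D4:**
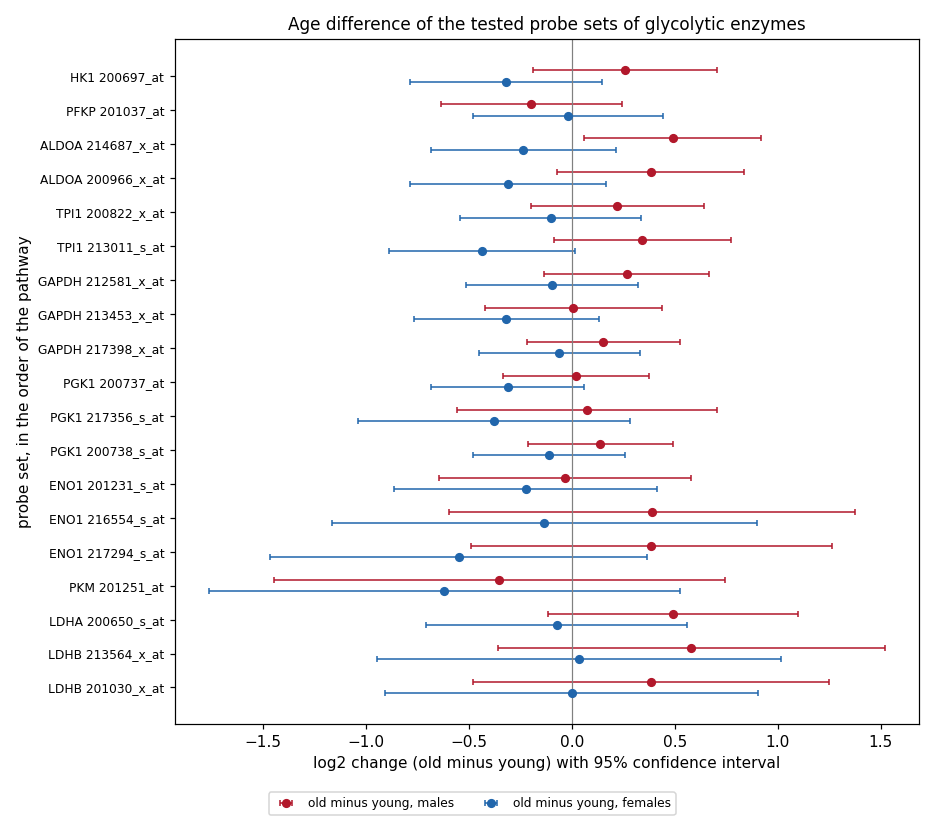
Log2 difference (old minus young) of the 19 tested probe sets in males and in females, with the 95% confidence interval from limma, in pathway order. In males 16 of 19 points lie above 0 and in females 18 of 19 lie below it, and each interval but that of ALDOA 214687_x_at in males crosses 0.

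The difference between the age effects of the sexes was tested as an interaction, males minus females. No probe set was called, among the 19 members or among all 11108 (0%). At an unadjusted p of 0.05, 3 of 19 member probe sets passed, against 1.94% of all, and 18 of 19 lay above 0, against 52.8% of all. The 3 were TPI1 213011_s_at at 0.78 ± 0.30 (SE, unadjusted limma p 0.0168), ALDOA 214687_x_at at 0.72 ± 0.30 (0.0243) and ALDOA 200966_x_at at 0.69 ± 0.32 (0.0403), each with an adjusted p of 0.99994. HK1 gave 0.58 ± 0.31 and ENO1 217294_s_at 0.93 ± 0.61, and PFKP was the only one below 0, at −0.18 ± 0.31. The median over the 10 genes was 0.35, against 0.02 over all genes. Markers of some cell types also lay mostly above 0 in this contrast. This held for all 8 smooth muscle markers (median 0.31), all 6 tested endothelial markers (0.32) and 5 of 6 adipocyte markers (1.47). Brown fat markers had 3 of 4 above 0 (1.41) and nerve markers 2 of 2 (0.31). Fibroblast (median 0.001) and macrophage markers (0.09) had 3 of 6 above 0, and erythroid markers 0 of 3 (−0.81). Lymphocyte and skeletal muscle markers had 1 of 2 each. Within the sexes, smooth muscle markers were lower in old animals for 7 of 8 genes in males (median −0.13) and 8 of 8 in females (−0.38). Endothelial markers were higher in old males for 6 of 6 genes (0.16) and lower in old females for 4 of 6 (−0.21). Fibroblast markers were lower in old animals for 4 of 6 genes in males (−0.44) and 5 of 6 in females (−0.43). The part of these markers in the enzymes' values was not tested, other than by the adipocyte covariate.

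Part of this contrast rested on the divergent samples. Without them, 15 of 19 probe sets lay above 0 and the median over the genes was 0.24. TPI1 213011_s_at then gave 0.12, whereas ALDOA 214687_x_at gave 0.46 and HK1 0.45. In females the count of probe sets lower in old animals was 13 without young female 2, which is not divergent. It was 12 without young female 3, which is divergent. Old female 6 had the lowest summed smooth muscle intensity (52038) and young female 3 the next lowest (79739).

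**Figure D5:**
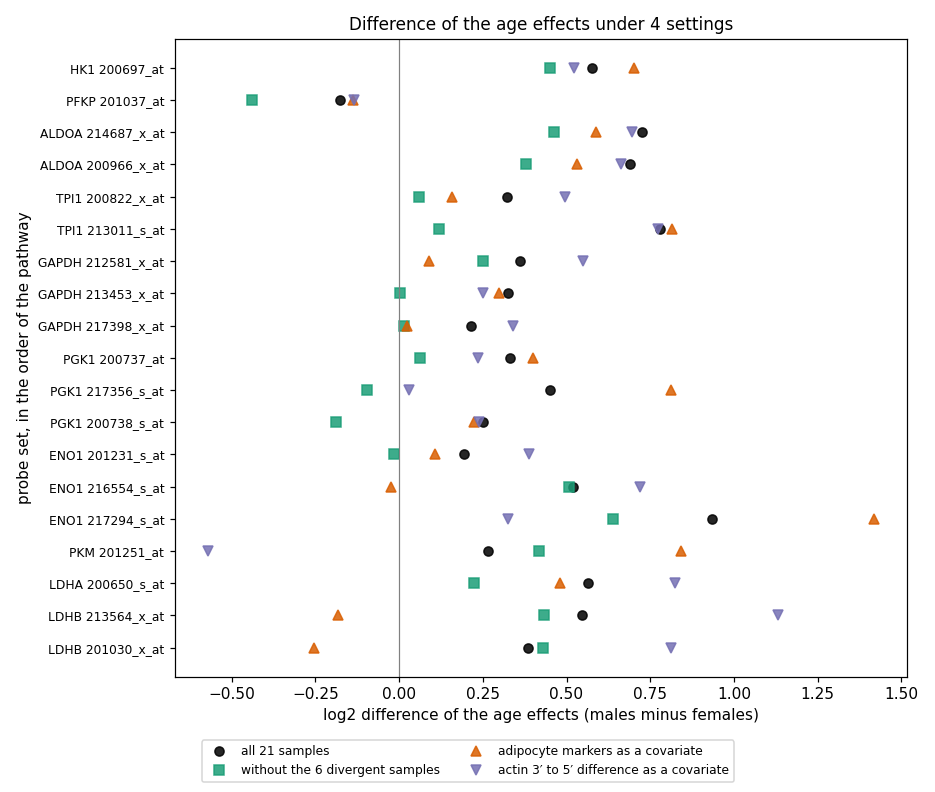
Difference of the age effects (males minus females, log2) of the 19 tested probe sets with all 21 samples, without the 6 divergent samples, and with adipocyte markers or the actin 3′ to 5′ difference as a covariate. ALDOA and HK1 lie above 0 in each, while TPI1 213011_s_at is near 0 without the divergent samples (0.12) and LDHB lies below 0 with the adipocyte covariate (−0.18 for 213564_x_at).

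Isoform use was asked by the difference between 2 isoenzyme genes within a sample, compared between old and young animals by exact 2-sided permutation tests over samples. Over the 8 tests made, each adjusted p was 0.879 under Benjamini-Hochberg adjustment. HK2 lay below the limit for testing, so hexokinases were not compared. For LDHA minus LDHB, a higher value means a higher RNA signal of the LDHA probe set relative to that of LDHB. The value does not tell which subunit is more abundant. This difference was −1.08 ± 1.25 (SD, n = 6) in old males and −0.99 ± 0.85 (n = 5) in young males. In females it was −0.72 ± 0.60 (n = 5) in old and −0.61 ± 0.85 (n = 5) in young animals. The differences were −0.09 (exact permutation p = 0.879) and −0.11 (exact permutation p = 0.817), far within the spread between samples. Old male 4 (lowest, at −3.52) and young male 1 (lowest, at −2.44) were the same samples that stood out for LDHB.

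ALDOC, the aldolase known from brain, gave the widest isoform difference. ALDOA minus ALDOC was 1.94 ± 1.37 (SD, n = 6) in old males and 3.38 ± 1.66 (n = 5) in young males, a difference of −1.44 (exact permutation p = 0.143). Without young male 1 it was −2.10, with an exact permutation p of 0.0286 and an adjusted p of 0.229, and without the divergent samples it was −1.41. The lowest values were −0.095 in old male 2 and 0.72 in young male 1. The mean log2 value of the adipocyte markers was 11.38 in old male 2 and 11.37 in young male 1. Among old males only sample 4 (11.71) had a higher mean, and among young males none had. The part of adipocyte markers in the ALDOC values was not tested. In females the difference was −0.63 (exact permutation p = 0.421). PFKP minus PFKM, the platelet against the muscle form of phosphofructokinase, differed by −0.25 in males (exact permutation p = 0.234) and 0.14 in females (exact permutation p = 0.667). ENO1 minus ENO2, the widespread against the neuronal form of enolase, differed by −0.52 in males (exact permutation p = 0.439) and −0.46 in females (exact permutation p = 0.563). The values of old and young samples overlapped in each of the 8 comparisons.

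Other genes of glucose metabolism were taken from 6 lists, with 8, 3, 6, 11, 15 and 11 tested genes. In them limma called 0 genes in either sex, against 1 of all 6943 tested genes in males and 0 in females. An unadjusted p under 0.05 was reached by ALDOC, TALDO1 and EGLN1 in males and by EGLN1 and P4HA1 in females. Of all 6943 genes, 112 passed this limit with a higher and 138 with a lower mean in old males. In old females 79 and 120 did so. Over all 6943 tested genes, 48.1% were higher in old males and 46.3% in old females, with medians of −0.01 and −0.02. Of the other glycolytic isoenzymes, 8 of 17 were tested, with 6 higher and 2 lower in old males and 5 higher and 3 lower in old females (medians 0.11 and 0.09). ALDOC differed most in males, at 11.35 ± 1.61 (SD, n = 6) in old and 9.43 ± 1.67 (n = 5) in young animals. Its log2 difference was 1.93 ± 0.78 (SE, unadjusted limma p 0.0214) in males and 0.39 ± 0.81 in females. The part of adipocyte markers in the ALDOC difference was not tested. PGAM1, the phosphoglycerate mutase between PGK1 and ENO1, followed with 0.62 ± 0.31 in males and −0.16 ± 0.33 in females.

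Glucose and lactate carriers were thinly covered, with 3 of 8 genes tested and medians of −0.06 in males and −0.02 in females. The glucose transporter SLC2A1 differed by −0.15 ± 0.27 (SE) in males and 0.24 ± 0.28 in females. The list also holds the fructose transporter SLC2A5, at −0.06 ± 0.30 in males and −0.07 ± 0.31 in females. BSG, the chaperone of lactate carriers, differed by 0.46 ± 0.37 in males and −0.02 ± 0.38 in females. Of the genes that set fructose bisphosphate or gluconeogenesis, 4 of 6 tested were higher in old animals in each sex (medians 0.25 in males and 0.27 in females). PCK1, which opens gluconeogenesis and is also made in fat, differed by 1.56 ± 1.11 in males and 0.68 ± 1.16 in females.

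Among genes for the entry of pyruvate into mitochondria, 9 of 11 were higher in old males and 7 of 11 in old females (medians 0.25 and 0.14). The pyruvate carrier subunit MPC2 differed by 0.999 ± 0.51 (SE) in males and 0.22 ± 0.53 in females. Pyruvate carboxylase (PC) differed by 1.08 ± 0.77 in males and 0.14 ± 0.81 in females. PDK4, a kinase that shuts off pyruvate dehydrogenase, differed by 0.72 ± 0.46 in males and −0.35 ± 0.48 in females. Adipocyte markers were also higher in old males, with a median difference of 1.37 over the 6 tested, and −0.02 in females, and their part in these values was not tested.

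Branch pathways that leave glycolysis, such as the pentose phosphate pathway and glycogen metabolism, had 11 of 15 tested genes higher in old males and 7 of 15 in old females (medians 0.12 and −0.03). TALDO1, the transaldolase, differed by 0.47 ± 0.22 (SE, unadjusted limma p 0.0425) in males and 0.31 ± 0.23 in females. TKT, the transketolase, differed by 0.69 ± 0.41 in males and 0.16 ± 0.42 in females. PGM1, which links glycogen to glycolysis, differed by −0.31 ± 0.15 in females (unadjusted limma p 0.0510) and −0.03 ± 0.14 in males.

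Of genes in the response to low oxygen, which includes many activators and targets tied to glycolysis, 6 of 11 were higher in old males and 9 of 11 were lower in old females (medians 0.02 and −0.11). EGLN1, the oxygen-sensing hydroxylase that marks HIF proteins for degradation, had the same direction in both sexes, at −0.65 ± 0.30 (SE, unadjusted limma p 0.0395) in males and −0.86 ± 0.31 (unadjusted limma p 0.0116) in females. P4HA1, a collagen prolyl hydroxylase subunit, differed by 0.02 ± 0.19 in males and −0.47 ± 0.20 in females. None of these reached an adjusted p under 0.05.

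Which genes varied across samples in the manner of each enzyme was described by Pearson's r of the deviations from the group means over 21 samples. The 3 highest of all tested genes other than the 10 members were taken. LDHB ran closest to UQCRB (r = 0.96), COX5B (0.95) and HADHB (0.95), which encode subunits of the respiratory chain and of the fatty acid oxidation complex. Over the 15 samples that were not divergent, the values were 0.82, 0.88 and 0.82. LDHA ran with the protease PRSS23 (0.87, and 0.84 over 15 samples), with HIF1A (0.86 and 0.83), the oxygen-regulated subunit of HIF, and with CYP1B1 (0.84 and 0.76). ENO1 also had HIF1A as its closest gene (0.86 and 0.76). ALDOA ran with SDHC (0.83 and 0.76), a subunit of succinate dehydrogenase, and with TMEM147 (0.79 and 0.90).

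For several enzymes the likeness was lower once the divergent samples were left out. The genes closest to PKM were ZFYVE21 (0.91, and 0.67 over 15 samples), PI4KA (0.90 and 0.36) and STT3A (0.90 and −0.04). Those closest to PGK1 were SUMO3 (0.88 and 0.43), UTP11 (0.85 and 0.06) and TMED9 (0.84 and −0.23). GAPDH ran with TCTN3 (0.88 and 0.73) and PFKP with RERE (0.80 and 0.82). HK1 ran with PTS (0.85 and 0.47), TSPAN2 (0.84 and 0.21) and CSPG4 (0.82 and 0.57). TPI1 ran with PAX8 (0.82 and 0.57), LOC101929550 (0.79 and 0.72) and CHRNA2 (0.78 and 0.17). All these values share arrays, normalisation and tissue makeup, and each was picked as among the highest over all tested genes other than the members. Among themselves most enzymes were only loosely related: over the 45 pairs of member genes the median r was 0.12, with a range of −0.47 to 0.82. The median was 0.19 over the 15 samples. LDHA and ENO1 were the closest pair (0.82, and 0.81 over 15 samples).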

How the data were processed

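Biotin-labelled RNA from 24 thoracic aorta samples was hybridised to single-colour arrays, per the labels' protocols. The authors deposited linear intensities, 1 per probe set, for 22277 probe sets. No source used here gives the summary and scaling steps. Array medians ran between 144.2 and 264.1, at a trimmed mean near 500.1. Gene names came from the platform annotation, which gave 1 symbol for 19064 probe sets, several for 1043 and none for 2108 of the 22215 that are not controls. The groups were taken from the sample titles. From the intensities, log2(intensity + 16) was quantile normalised over the 22215 probe sets, control probe sets were read off the same curves, and the limit on dim probe sets was the median of the means. Fits used lmFit and eBayes with a trend (limma 3.58.1, R 4.3.3) over all 4 groups in 1 model, with contrasts within each sex, their mean and their difference, and Benjamini-Hochberg adjustment at 0.05 over all tested probe sets. The limma fit was tried on simulated independent values with larger changes than the members showed. That run cannot tell how well changes of the members' size would be found. Dixon's test for stray samples covered the members by group, and the number of arrays limits the precision throughout. Figures were drawn with matplotlib 3.10.9.

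All 10 enzymes are named with each probe set, from each pathway list the up to 3 genes with the smallest limma p in each sex, and for likeness the 3 genes other than members with the highest r. The members, lists and tests were chosen with earlier results of these data known. Alternatives covered the normalisation, the pseudocount (1 or 64), the filter, all 24 arrays as samples, the divergent samples, the actin 3′ to 5′ difference and adipocyte markers as covariates, array weights, a replicate block and each sample left out. No genome or transcript sequence was used here.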

Additional observations from a re-analysis of the deposited data

Results flagged for a closer look

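In 12 of 100 combinations of a probe set and a group, 1 sample lay far from the others of its group by Dixon's test; chance alone would pick out about 1 in 20 groups. The values below are log2 values, and no explanation was tested. LDHB gave 4 of the 12, with old male 4 at 14.325 and young male 1 at 12.935 for 213564_x_at, and old male 4 at 13.943 and young male 1 at 13.084 for 201030_x_at. ENO1 gave another 4: old male 2 was low at 10.327 and young male 3 high at 11.428 for 201231_s_at, and young male 1 was low at 6.631 and old female 2 low at 6.629 for 217294_s_at. ALDOA 214687_x_at was low in young male 3, at 12.596. PGK1 200737_at was high in young female 3, at 11.569. GAPDH 212581_x_at was high in young male 1, at 13.631. LDHA was high in young male 3, at 11.052. Old males 2 and 4, young male 1, old female 2 and young female 3 are among the divergent samples, and young male 3 is the mean of a closely alike pair of arrays.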

How the results depend on the processing

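No member probe set was called in any contrast under any of the 33 alternatives, 21 of which left out 1 sample. Their lowest adjusted p was 0.254 in males (array weights), 0.810 in females (without old female 1) and 0.708 for the difference between the sexes (adipocyte covariate). The 2 probe sets called in males became 0 with median-centred arrays, a pseudocount of 64, no filter, the actin covariate or the adipocyte covariate, and 25 with array weights; leaving out 1 sample gave 0 to 2. For the averaged sexes the count of 0 became 1 without the divergent samples and 1 with the replicate block, which changed no other count of calls. The labels do not say whether samples of equal replicate number have more in common, and these few correlations cannot decide it. Same-numbered old and young samples of a sex had correlations of their deviations between −0.42 and 0.51. Of these, 4 of 10 exceeded 0.1, and 5 of 20 samples correlated best with their own number. For the other pairs of groups the correlations lay between −0.42 and 0.50. The block takes up old male 4, since number 4 was left in no other group. The causes were not tested.

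The median difference of the 10 genes ranged between 0.07 and 0.28 in males, −0.29 and −5.58e-05 in females, −0.08 and 0.09 for the averaged sexes, and 0.24 and 0.51 for the difference between the sexes. In males 10 of 19 probe sets kept the sign of their difference under all 33 alternatives, in females 5, and for the difference between the sexes 12. The most changes of sign were 10 for GAPDH 213453_x_at in males and 11 for LDHB 213564_x_at in females. With array weights, 7 of 19 were higher in old females, and with the adipocyte covariate 12 of 19 in old males. Without the divergent samples LDHA minus LDHB became 0.18 in males and 0.39 in females, ENO1 minus ENO2 became 0.33 in females and ALDOA minus ALDOC 0.21 in females. With each sample left out, LDHA minus LDHB ranged between −0.45 and 0.40 in males and −0.35 and 0.23 in females, PFKP minus PFKM between −0.060 and 0.30 in females, and ENO1 minus ENO2 between −0.76 and 0.067 in females. With 5 or 6 samples a group, differences of the size seen here could not be told from none.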
